A study of Mus musculus with 2 samples.

Results

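Regional and lineage transcription factors, here *Hand2*, *Tbx20*, *Msx1*, *Msx2*, *Dlx6*, *Isl1*, *Nkx2-3*, *Meox1*, *Tcf21* and *Pax1*, were followed across the cells of the mouse thoracic aorta. These 10 genes were among 32287 features counted in each library and were found by symbol. They were selected on measured values of these same cells, so their levels by cell type, subcluster and pair are given as descriptions with no test.

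Factors of these families pattern the embryo before the aorta takes shape. SMCs of the ascending aorta arise from the second heart field and the cardiac neural crest, those of the arch mainly from the neural crest, and those of the descending aorta from the somites, while Hox genes record position along the trunk. Adult cells of the vessel wall can keep parts of these early programs.

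Single-cell RNA-seq was performed on 2 thoracic aortas of male wild-type GFPiSMC mice of strain C57BL/6J, with 1 library for each aorta. GFPiSMC mice carry *Myh11-CreERT2*, a tamoxifen-inducible Cre driven by a smooth muscle promoter and inserted on the Y chromosome, and the *mT/mG* reporter, which replaces membrane tdTomato by GFP after recombination. Both received tamoxifen (1 mg/d i.p., 5 days) from 3 weeks of age, and aortas were taken at 12 weeks. Cells from a cold digestion were sorted as single and viable, and both libraries belong to 1 group, so comparisons are between cell types of the same aortas.

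The matrices held 8947 and 6263 barcodes with 47009780 and 30919996 UMIs (unique molecular identifiers, each counting a captured transcript), and 18 barcode sequences occurred in both. The labels give 6278 and 4300 cells after the submitters' filter, and 6543 and 4609 cells passed the filter and doublet removal used here. Marker genes named SMCs (2219 and 1609 cells), fibroblasts (1635 and 1142), endothelial cells (739 and 651), lymphatic endothelial cells (47 and 76), mesothelial cells (280 and 156), myeloid cells (958 and 596), lymphocytes (623 and 365) and erythroid cells (29 and 14). Of the markers fixed for each type, 8 of 8 were found in at least 25% of SMCs, 8 of 8 of fibroblasts, 7 of 8 of endothelial cells and 7 of 7 of mesothelial cells. Fibroblasts include subcluster F4 (137 and 100 cells), whose SMC markers summed to more than its fibroblast markers (21929 and 23429 against 9309 and 7996 per 1000000 UMIs), and F8 (17 and 15), led by myeloid genes. Endothelial cells include E7 (24 and 5 cells), led by fibroblast genes, and E8 (12 and 8), led by SMC genes, and SMCs include S8 (15 and 6), led by endothelial genes, and S9 (15 and 6), led by myeloid genes. Values are UMIs summed over the cells of a type in 1 aorta, scaled to 1000000 UMIs of those cells (CPM), in the order aorta 1 and aorta 2. Intervals are exact 95% Poisson or binomial intervals and cover counting error only.

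For each of the 10 genes except *Tbx20*, the same cell type was above every other type in both aortas. *Tbx20* was highest in SMCs in aorta 1 and in mesothelial cells in aorta 2. For *Tcf21* the leading fibroblasts were above mesothelial cells within each aorta, but the 2 types overlapped when values were compared across aortas.

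**Figure D1:**
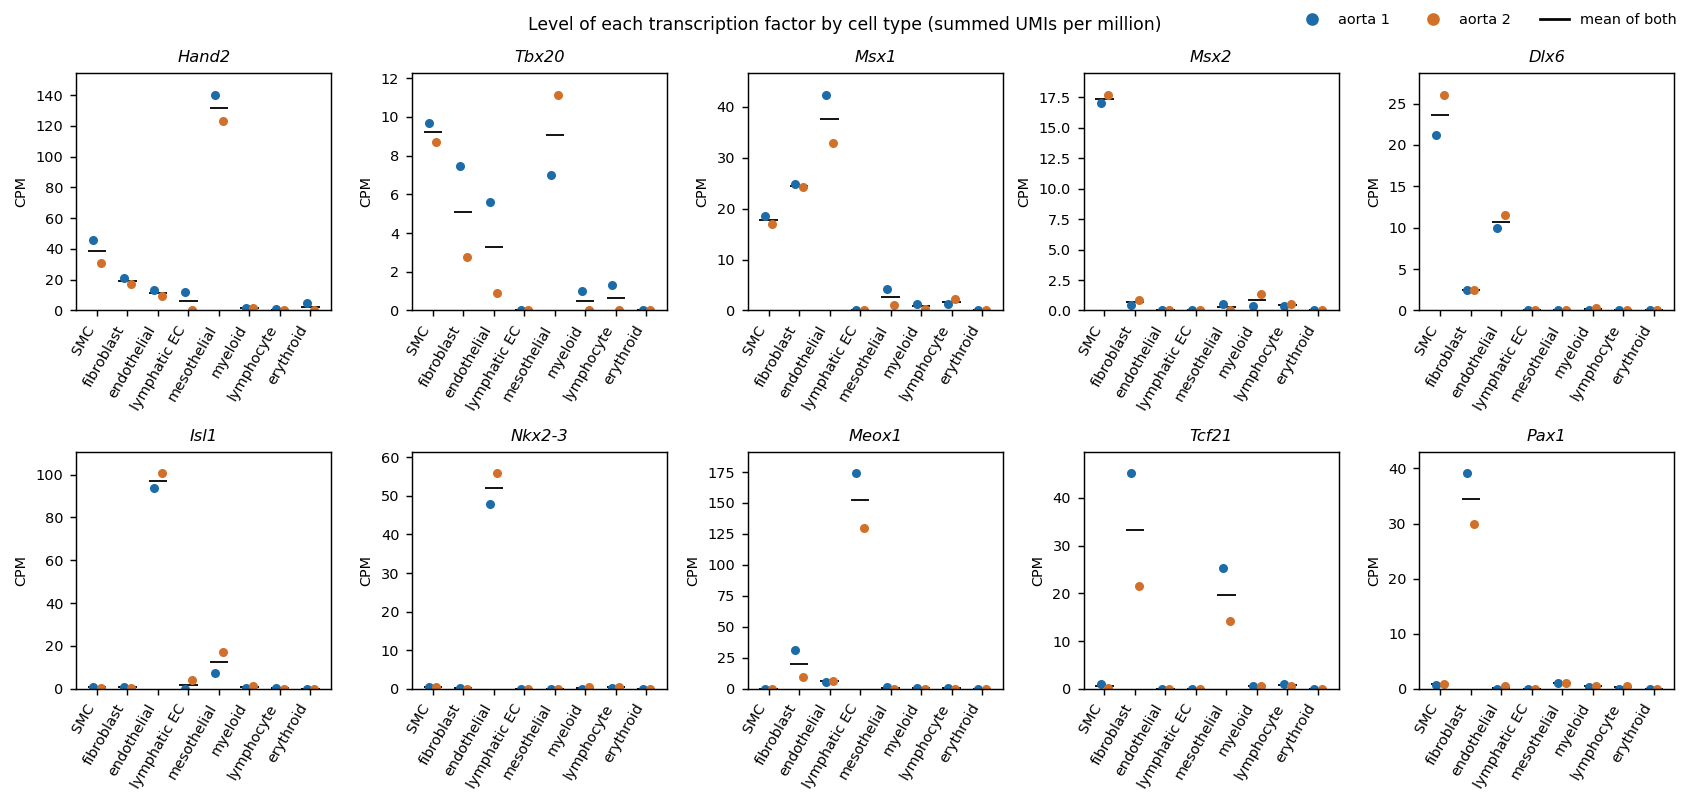
Level of each of the 10 transcription factors (y axis, summed UMIs as CPM, linear, scaled by panel) in 8 cell types (x axis), with 1 point per aorta and a bar at the mean. *Msx2* and *Dlx6* were highest in SMCs, *Isl1*, *Nkx2-3* and *Msx1* in endothelial cells, *Meox1* in lymphatic endothelial cells, *Pax1* in fibroblasts and *Hand2* in mesothelial cells.

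*Hand2* encodes a bHLH factor needed for the outflow tract and the pharyngeal arches. Mesothelial cells held it at 140 and 124 CPM and SMCs at 46.0 and 31.1 CPM. Fibroblasts held 20.9 and 17.3 CPM, and endothelial cells 13.6 and 9.32 CPM. Neighbours in this order of 4 types did not overlap between the aortas, and endothelial cells overlapped the next type, lymphatic endothelial cells, which held 2 and 0 UMIs. Myeloid cells held 1.31 and 1.92 CPM. Being numerous, SMCs carried 58.1% ± 1.32 (SD, n = 2) of all *Hand2* UMIs and mesothelial cells 19.8% ± 0.580.

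The gene lies at chr8:57320983-57324633 on the plus strand (GRCm38), where *Hand2os1*, a long noncoding gene on the minus strand, covers 461 of its 2351 exonic bases. *Hand2os1* itself was counted at 81.2 and 98.2 CPM in mesothelial cells and at 27.5 and 11.4 CPM in SMCs. Whether counting used the strand is not given in the sources used here, so *Hand2* counts are uncertain to the extent of this overlap.

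*Tbx20* encodes a T-box factor of the heart and outflow tract. It was counted at 9.70 and 8.71 CPM in SMCs, 6.99 and 11.1 CPM in mesothelial cells, 7.44 and 2.74 CPM in fibroblasts, and 5.63 and 0.887 CPM in endothelial cells. Each of these types overlapped the next across aortas, and SMCs (9.21 ± 0.699 CPM, SD, n = 2) could not be ranked against mesothelial cells (9.06 ± 2.94). Of the fibroblast UMIs, 21 of 76 and 12 of 19 lay in F4, the subcluster with SMC markers. The endothelial value rested on 17 and 2 UMIs, of which 10 and 1 remained without E7 and E8.

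Sequences upstream of *Hand2* and *Tbx20* are shown because the pair was co-detected in SMCs, as described below. RefSeq promoters (GRCm38.p6) were at hand for 8 of the 10 genes, the others being *Dlx6* and *Meox1*. Each line gives the 250 bases before the start, 5′ to 3′ on the strand of the gene. Capitals mark matches on either strand to the E-box CANNTG, which bHLH factors bind, the homeodomain core TAAT, which reads ATTA on the other strand, and the T-box core AGGTGT, which reads ACACCT there. Of 32851 promoters, 66.2% held an E-box, 54.9% a homeodomain core and 11.8% a T-box core in the same 250 bases. *Hand2* (chr8:57320733-57320982, plus strand) held 2 E-boxes and 5 homeodomain cores, *Tbx20* (chr9:24774304-24774553, minus strand) held 0 and 1, and neither held the T-box core. No base lay in 2 kinds of motif, and a match is a description of letters, not a site in use.
Hand2: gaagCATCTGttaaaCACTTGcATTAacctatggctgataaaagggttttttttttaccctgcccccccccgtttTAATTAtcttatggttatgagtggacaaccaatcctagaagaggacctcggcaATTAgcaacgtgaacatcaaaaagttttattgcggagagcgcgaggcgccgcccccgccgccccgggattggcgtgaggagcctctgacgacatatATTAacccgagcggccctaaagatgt
Tbx20: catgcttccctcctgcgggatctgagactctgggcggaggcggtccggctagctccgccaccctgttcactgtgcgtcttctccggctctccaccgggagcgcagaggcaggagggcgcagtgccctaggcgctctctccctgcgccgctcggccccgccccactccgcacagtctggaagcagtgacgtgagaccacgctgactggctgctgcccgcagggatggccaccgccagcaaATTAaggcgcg

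*Tcf21*, the other bHLH gene, is known from epicardial cells and the fibroblasts they give rise to. It stood at 45.2 and 21.5 CPM in fibroblasts and 25.3 and 14.2 CPM in mesothelial cells, and at most 1.02 CPM in any other type. Endothelial cells held 0 UMIs, which allows up to 0.993 and 1.33 CPM at a floor of 3 counts. Fibroblasts were above mesothelial cells within each aorta, and fibroblasts of aorta 2 were below mesothelial cells of aorta 1.

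*Msx1* and *Msx2* are muscle segment homeobox genes of neural crest derivatives and act downstream of BMP signaling. Endothelial cells held *Msx1* at 42.4 and 32.8 CPM, fibroblasts at 24.8 and 24.2 CPM and SMCs at 18.6 and 17.0 CPM, in this order without overlap. *Msx2* stood at 17.1 and 17.7 CPM in SMCs and no higher than 1.37 CPM elsewhere, with 95.7% ± 1.73 (SD, n = 2) of its UMIs in SMCs. Endothelial cells, the leading type for *Msx1*, held no *Msx2* UMI, which allows up to 0.993 and 1.33 CPM.

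*Dlx6* is a distal-less homeobox gene that patterns the pharyngeal arches. SMCs held it at 21.2 and 26.1 CPM, endothelial cells at 9.93 and 11.5 CPM, and fibroblasts at 2.45 CPM in both aortas, in this order without overlap. Mesothelial cells and lymphocytes held none. *Dlx6* (chr6:6863334-6868568, plus strand) lies inside the antisense gene *Dlx6os1*, with 0 exonic bases in common, and shares 104 of its 2375 exonic bases with *Dlx6os2* on the minus strand. *Dlx6os1* was counted at 16.2 and 22.0 CPM in SMCs, and at 4.97 and 11.1 CPM in endothelial cells, with 1.27 and 2.45 CPM in fibroblasts.

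SMC genes found in other types can come from free RNA or from cells of mixed content, and their parts were not tested. Over all fibroblasts, F4 included, the level of the 8 SMC markers was 0.0475 to 0.151 of that in SMCs in aorta 1 and 0.0545 to 0.152 in aorta 2. The same ratio was 0.455 and 0.557 for *Hand2* and 1.33 and 1.42 for *Msx1*, above every marker. *Dlx6* and *Msx2* were few in fibroblasts. *Dlx6* had 25 and 17 UMIs, of which 6 and 2 lay in F4 and 12 and 6 in F0, where the SMC markers summed to 1096 and 921 CPM. *Msx2* had 5 and 6 UMIs, of which 3 and 5 lay in F4. Over all endothelial cells, E7 and E8 included, the markers reached 0.0162 to 0.0726 and 0.0118 to 0.0842 of the SMC level, while *Dlx6* reached 0.468 and 0.443 and *Hand2* 0.295 and 0.300. Without the 6 subclusters led by markers of another class, the markers were at 0.0108 to 0.108 and 0.00715 to 0.101 in fibroblasts and at 0.0101 to 0.0647 and 0.00616 to 0.0755 in endothelial cells. *Hand2* was then at 0.424 and 0.556 in fibroblasts and at 0.205 and 0.279 in endothelial cells, where 27 of 41 and 19 of 21 UMIs remained (9.52 and 8.67 CPM). *Dlx6* was at 0.482 and 0.455 in endothelial cells and within the markers' range in fibroblasts (0.0990 and 0.0937). *Tbx20* was at 0.625 and 0.130 in fibroblasts and at 0.362 and 0.0520 in endothelial cells, where the value of aorta 2 lay within the markers' range.

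*Isl1*, a LIM homeobox gene of second heart field progenitors, stood at 93.7 and 101 CPM in endothelial cells, against 7.52 and 17.2 CPM in mesothelial cells. SMCs held 1.02 and 0.604 CPM. *Nkx2-3*, an NK2 homeobox gene known from vessels of the gut and spleen, stood at 48.0 and 55.9 CPM in endothelial cells, and no other type exceeded 0.549 CPM. Endothelial cells held 86.8% ± 0.726 of the *Isl1* and 92.8% ± 0.691 of the *Nkx2-3* UMIs (SD, n = 2).

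The upstream bases of *Isl1* (chr13:116309689-116309938, minus strand) and *Nkx2-3* (chr19:43612075-43612324, plus strand) are shown with the same marks because the pair was co-detected in endothelial cells. Each held 1 E-box and no T-box core, with 2 homeodomain cores in *Isl1* and 0 in *Nkx2-3*.
Isl1: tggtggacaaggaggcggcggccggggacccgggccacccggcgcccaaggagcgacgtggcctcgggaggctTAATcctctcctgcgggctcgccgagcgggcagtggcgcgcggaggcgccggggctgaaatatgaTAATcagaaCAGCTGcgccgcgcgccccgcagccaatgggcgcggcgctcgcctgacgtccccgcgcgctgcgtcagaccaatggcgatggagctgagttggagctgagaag
Nkx2-3: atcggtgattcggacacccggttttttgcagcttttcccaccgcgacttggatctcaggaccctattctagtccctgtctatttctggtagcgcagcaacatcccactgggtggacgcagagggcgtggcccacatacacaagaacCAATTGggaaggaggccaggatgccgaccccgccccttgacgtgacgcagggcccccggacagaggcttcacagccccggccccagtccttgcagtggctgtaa

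*Meox1*, a homeobox gene of the somites, was highest in lymphatic endothelial cells, at 174 and 130 CPM from 29 and 33 UMIs (intervals 117 to 250.1 and 89.5 to 183 CPM). It was lower in fibroblasts, at 30.9 and 9.51 CPM from 316 UMIs in 95 cells and 66 UMIs in 37 cells. The intervals of the fibroblast values, 27.6 to 34.5 and 7.35 to 12.1 CPM, did not meet, so the aortas differed beyond counting error. The same held for *Hand2* in SMCs, for *Tbx20*, *Tcf21* and *Pax1* in fibroblasts, and for some values of few UMIs. These intervals leave out the sampling of cells, and UMIs of the same cell are not independent. *Pax1*, a paired box gene of the sclerotome, was a fibroblast gene in both aortas, at 39.1 and 29.8 CPM, with 94.6% ± 2.52 (SD, n = 2) of its UMIs there and at most 1.08 CPM elsewhere. It shares 183 of its 4492 exonic bases with the antisense gene *AI646519*.

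Within SMCs the genes fell into different subclusters. These were built without the members, the other listed transcription factors and the Hox genes, and a subcluster against the rest is no test, since the same cells were clustered. Subcluster S0 (665 and 381 cells), led by *Tnnt2*, *Hand2* and *Hand2os1*, held *Hand2* at 89.7 and 76.4 CPM and *Tbx20* at 17.8 and 20.7 CPM. Subcluster S1 (397 and 383 cells), led by *Adamtsl1*, *Prss12* and *Fbln1*, held *Dlx6* at 102 and 95.3 CPM, *Msx2* at 81.7 and 63.5 CPM and *Msx1* at 36.8 and 35.2 CPM. *Hand2* in S1 was 6.55 and 10.9 CPM, and *Dlx6* in S0 was 0.615 and 3.56 CPM.

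Hox genes of groups 6 to 9 were highest in other SMC subclusters. Their 12 genes summed to 145 and 152 CPM in S2 (408 and 371 cells, led by *Hoxa7* and *Tnc*) but to 7.69 and 8.89 CPM in S0 and 4.68 and 3.42 CPM in S1. In S2 *Hand2*, at 12.3 and 11.8 CPM, was the highest member. The small subcluster S6, led by *Pln* and *Sncg*, also had a high Hox sum, at 161 and 227 CPM. S5 (85 and 32 cells), with *Sox9* and *Tfap2b* among its 10 leading genes, held *Msx1* at 102 and 37.5 CPM from 45 and 7 UMIs, *Msx2* at 15.8 and 16.1 CPM, and no *Hand2* UMI. Its fibroblast markers summed to 1503 and 1099 CPM, the most of the SMC subclusters shown, and their part in *Msx1* was not tested. *Hand2* in S3, whose cells had a median of only 1776.5 UMIs, was 80.8 and 26.3 CPM and so differed between the aortas. The Hox sum in S3 was 60.9 and 57.5 CPM. S7 (40 and 36 cells, led by *Gdf15* and *Cdkn1a*) held a Hox sum of 82.1 and 124 CPM together with *Hand2* at 42.5 and 22.6 CPM and *Tbx20* at 33.4 and 11.3 CPM, the last from 11 and 3 UMIs. S4 (66 and 64 cells) held a Hox sum of 88.9 and 68.9 CPM with 2 *Hand2* UMIs in each aorta.

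**Figure D2:**
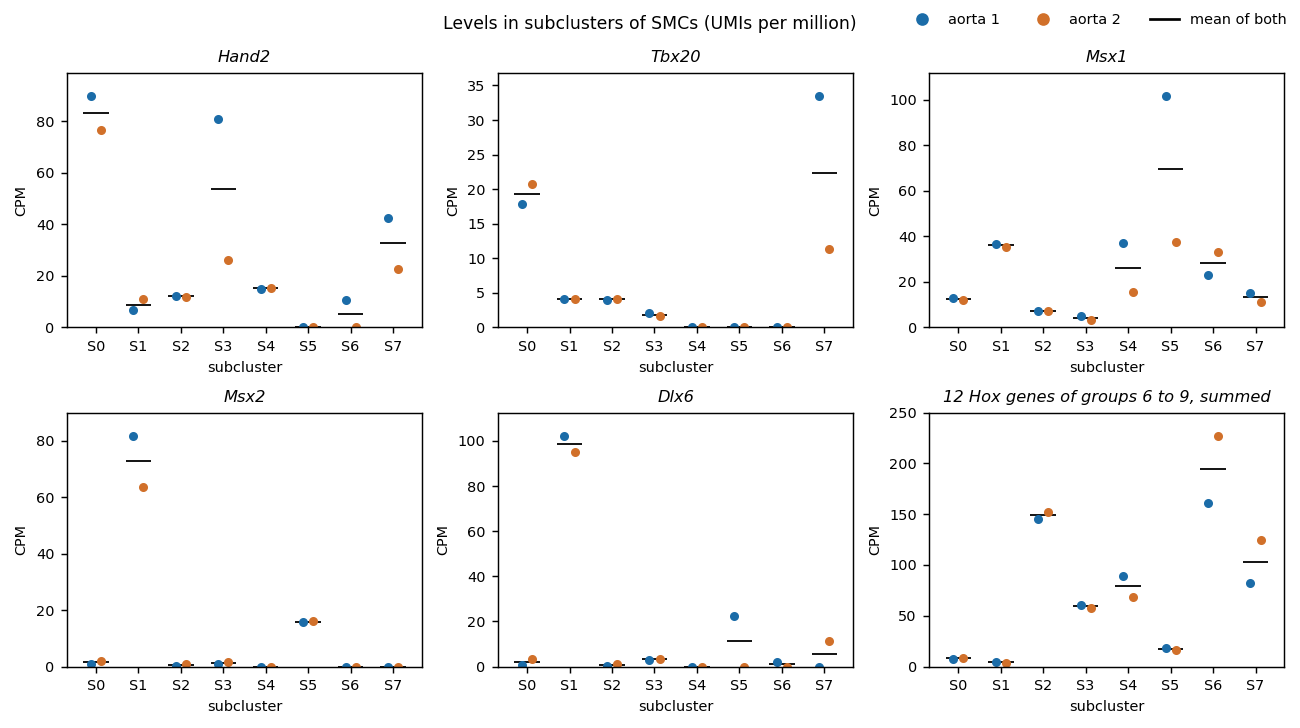
Levels of *Hand2*, *Tbx20*, *Msx1*, *Msx2* and *Dlx6* and the sum of 12 Hox genes (y axis, CPM, linear) in 8 SMC subclusters with at least 10 cells in each aorta (x axis), with 1 point per aorta and a bar at the mean. *Hand2* was highest in S0, *Msx2* and *Dlx6* in S1, *Msx1* in S5, and the Hox sum in S6 and S2.

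Single cells were read after thinning each to 3000 UMIs, which left out 477 and 337 shallower SMCs and kept 1742 and 1272. A *Hand2* UMI was found in 10.9% and 7.47% of these, *Msx1* in 6.66% and 6.45%, *Dlx6* in 5.45% and 8.25%, *Msx2* in 5.05% and 5.35% and *Tbx20* in 2.64% and 2.36%. Without thinning, over all SMCs, *Hand2* was found in 20.9% and 15.4% and *Dlx6* in 9.73% and 12.0%. In myeloid cells, which should lack these factors, thinned *Hand2* was found in 0.132% and 0.220% and *Msx1* in 0 of 757 cells, which allows up to 0.396%, and 0.220%. The median depth of all SMCs was 7711 and 7489 UMIs and that of myeloid cells 5419 and 5209.

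Most positive cells of a gene lay in 1 subcluster. S1 made up 22.4% and 29.0% of the thinned SMCs but held 88.6% and 91.2% of those with *Msx2* and 93.7% and 90.5% of those with *Dlx6*. S0 made up 37.7% and 28.9% and held 80.5% and 75.8% of those with *Hand2* and 67.4% and 63.3% of those with *Tbx20*. *Msx1* was spread more widely, with 39.7% and 47.6% of its cells in S1 and 21.6% and 22.0% in S0.

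Pairs of genes were then counted in the same cells and set beside the number that the product of both shares gives. No member was detected in 72.9% and 73.2% of SMCs at this depth, so a missing UMI does not show a missing transcript. With at least 20 positive cells of each gene in each aorta, 10 pairs of members could be read in SMCs and 6 in fibroblasts, besides those of endothelial cells given further on. Of these 16, 5 lay above the product in both aortas, 8 below it in both, and 3 lay on different sides.

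*Msx2* with *Dlx6* had the highest ratio among the SMC pairs. Both were found in 19 cells of aorta 1, where the product gave 4.80, and in 21 cells of aorta 2, where it gave 5.61. *Dlx6* was detected in 21.6% (13.5 to 31.7) and 30.9% (20.2 to 43.3) of *Msx2*-positive SMCs and in 4.59% (3.64 to 5.72) and 6.98% (upper bound 8.57) of negative ones. *Msx1* with *Dlx6* was found in 13 cells against 6.33 and in 10 against 6.77. *Msx1* with *Msx2* was above the product in aorta 1 (13 cells against 5.86) but not in aorta 2 (4 against 4.38).

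*Hand2* was found with *Tbx20* more often than the product gave, in 12 cells against 5.02 and in 7 against 2.24. *Tbx20* was detected in 6.32% (3.31 to 10.8) and 7.37% (3.01 to 14.6) of *Hand2*-positive SMCs and in 2.19% (1.52 to 3.05) and 1.95% (1.24 to 2.92) of negative ones. These are the genes whose upstream bases are printed above. *Hand2* with *Dlx6* was found in 1 and 0 cells where the product gave 10.4 and 7.84, and *Hand2* with *Msx2* in 1 and 3 cells against 9.60 and 5.08. *Hand2* with *Msx1* was found in 8 and 3 cells against 12.7 and 6.12. *Tbx20* was found with *Msx1* in 2 and 4 cells against 3.06 and 1.93, with *Msx2* in 2 and 1 against 2.32 and 1.60, and with *Dlx6* in 2 and 0 against 2.51 and 2.48. Over both aortas the ratio of *Tbx20* with *Msx1* was 1.20, and 0.813 without thinning.

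Hox transcripts were rarely found with these factors in SMCs. Any of the 12 Hox genes occurred with *Hand2* in 3 and 0 cells against 20.3 and 12.5, with *Msx2* in 0 and 1 against 9.40 and 8.98, and with *Dlx6* in 1 and 1 against 10.1 and 13.9. With *Msx1* the shortfall was smaller, at 6 cells against 12.4 and 6 against 10.8, and with *Tbx20* it was 2 cells against 4.91 and 2 against 3.96.

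**Figure D3:**
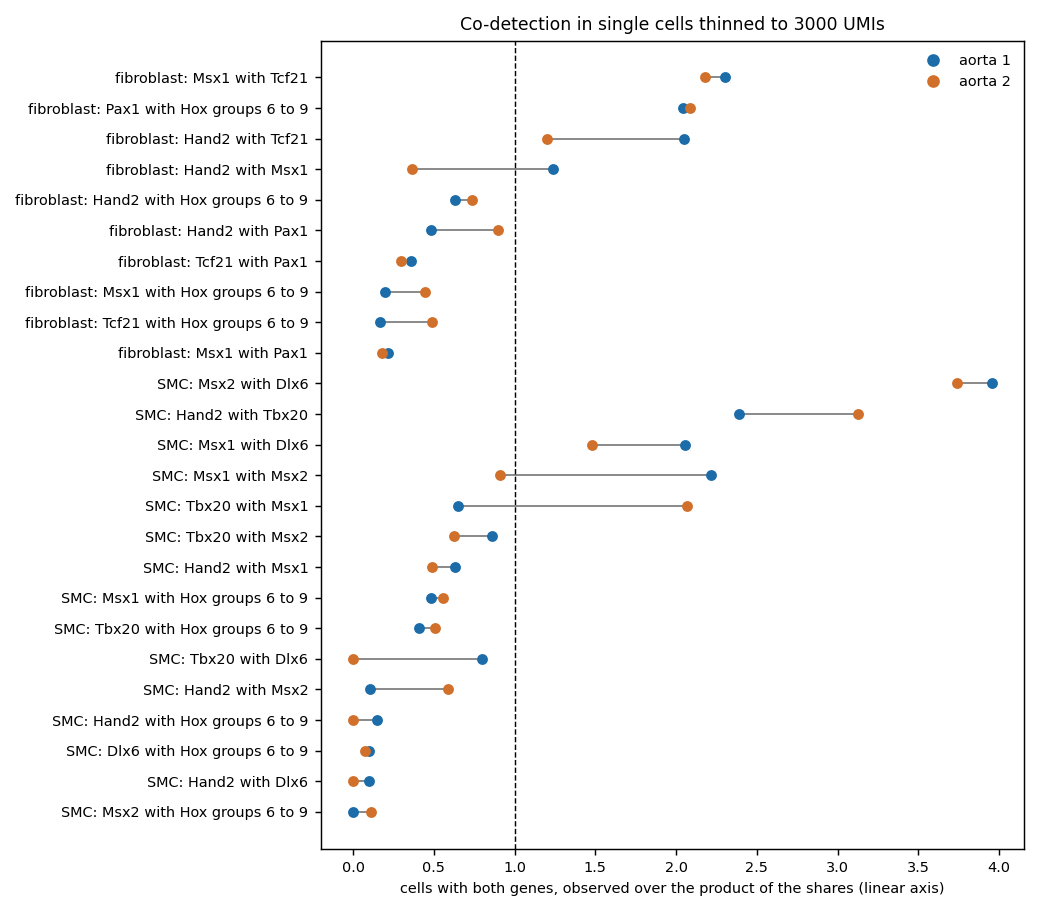
Cells with both genes of a pair over the number given by the product of their shares (x axis, linear, dashed line at 1) for 25 pairs of members, or of a member and the Hox genes, in SMCs and fibroblasts (y axis), with 1 point per aorta joined by a line. *Msx2* with *Dlx6* (3.96 and 3.74) and *Hand2* with *Tbx20* (2.39 and 3.12) lay farthest right in both aortas, and *Hand2* with *Dlx6* (0.0965 and 0) lay near the left edge.

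Contractile genes and the reporter were read in the same SMCs. The summed UMIs of the 8 SMC markers, per 3000 UMIs, had medians of 72.5 and 82 in *Msx2*-positive, 73 and 76 in *Dlx6*-positive and 76.5 and 92 in *Msx1*-positive cells. They were 133 and 125 in *Msx2*-negative cells and 148.5 and 132 in *Hand2*-positive ones. By subcluster the markers summed to 25361 and 26421 CPM in S1 and to 49461 and 46255 CPM in S0. GFP transcripts were found in 98.4% and 96.8% of *Hand2*-positive, 100% and 98.5% of *Msx2*-positive, 97.9% and 94.3% of *Dlx6*-positive and 95.7% and 95.1% of *Msx1*-positive SMCs, and in 97.8% and 96.8% of *Msx2*-negative ones.

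Genes most like a member were ranked by the ratio of CPM in positive over negative cells, taking the lower of both aortas, for the 6 members with at least 50 positive cells in each aorta. For *Msx2* these were *Frzb*, *Prss12*, *Hhip*, *Adamtsl1* and *Fbln1*, and for *Dlx6* they were *Lrrtm3*, *Fbln1*, *Adamtsl1*, *Prss12* and *Gpc3*. *Frzb*, a secreted Wnt antagonist, stood at 219.7 and 235 CPM in *Msx2*-positive and 48.4 and 56.2 CPM in negative SMCs. *Fbln1*, a matrix glycoprotein, stood at 291 and 232 CPM in *Dlx6*-positive and 44.7 and 55.4 CPM in negative SMCs. Summed pericyte markers stood at 3572 and 2931 CPM in *Msx2*-positive and 1438 and 1525 CPM in negative SMCs, with 4 of 5 markers detected, 3 higher in both aortas and *Higd1b* at 0, and at 3884 and 2698 CPM in *Dlx6*-positive and 1411 and 1501 CPM in negative ones. Endothelial markers stood at 91.2 and 88.9 CPM in *Dlx6*-positive and 53.8 and 54.0 CPM in negative SMCs, with 7 of 8 detected, 2 higher in positive cells of both aortas and *Cdh5* at 0. Fibroblast markers stood at 786 and 619 CPM in *Dlx6*-positive SMCs and at 644 and 646 CPM in negative ones. All 8 were detected, and 5 were higher in positive cells of both aortas. Summed myeloid markers were also higher in *Msx2*-positive SMCs of both aortas (83.3 against 57.4 CPM in aorta 1 and 250 against 52.6 CPM in aorta 2), with 9 of 10 detected and 4 higher in both. The part of these markers' cells in the lists was not tested.

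For *Hand2* the list included *Hbb-bs*, *Prelp*, *Cdh6* and *Uchl1*. *Hbb-bs*, a beta globin and 1 of the 5 erythroid markers, stood at 207 and 193 CPM in *Hand2*-positive and 40.6 and 39.9 CPM in negative SMCs. Together the erythroid markers stood at 375 and 305 CPM in positive and 62.7 and 68.8 CPM in negative cells, 4 of 5 were higher in positive cells of both aortas, and *Alas2* was at 0. Pericyte markers were lower, at 656 and 926 CPM in positive and 1655 and 1654 CPM in negative cells. The part of these markers' cells in the *Hand2* list was not tested.

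For *Msx1* the list was *Tcap*, *Gas1*, *Lamc3*, *Kcnj8* and *Gxylt2*, with log2 ratios of 0.82 to 1.23. *Tcap*, a sarcomere protein, stood at 477 and 630 CPM in *Msx1*-positive and 212 and 293 CPM in negative SMCs. *Kcnj8*, a potassium channel gene, is also on the pericyte list. Summed pericyte markers stood at 1960 and 2020 CPM in *Msx1*-positive and 1516 and 1571 CPM in negative SMCs, with 4 of 5 detected and 3 higher in both aortas. Fibroblast markers stood at 991 and 764 CPM in positive and 627 and 635 CPM in negative cells, with 8 of 8 detected and 5 higher in positive cells of both aortas. Endothelial markers stood at 141 and 73.2 against 49.8 and 55.7 CPM, with 5 of 8 detected, 2 higher in both and *Cdh5*, *Tie1* and *Cldn5* at 0. Their part in the *Msx1* list was not tested.

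In fibroblasts *Pax1* and *Tcf21* were highest in different subclusters, and both were found in F0. F3 (258 and 148 cells), led by *C1qtnf3*, *Hhip* and *Fmod*, held *Pax1* at 129 and 105 CPM and *Tcf21* at 2.60 and 1.18 CPM. F5 (131 and 49 cells), led by *Igfbp3*, *Lepr* and *Epyc*, held *Tcf21* at 276 and 156 CPM and *Pax1* at 6.00 and 0 CPM. The Hox sum was 317 and 286 CPM in F3 but 13.5 CPM in both aortas in F5. F3 made up 16.4% and 13.7% of the thinned fibroblasts and held 50.4% and 43.8% of those with *Pax1*, and F0 held 28.7% and 37.5% of them. F0 held 38.8% and 37.5% of the cells with *Tcf21* and F5 held 32.2% and 17.5%. In aorta 2, where 40 cells were positive, F1 held 10 and F2 held 7, as many as F5.

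*Meox1* and *Tbx20* were high in some fibroblasts of aorta 1 alone. In F0 (432 and 271 cells, led by *Dio2*) *Meox1* stood at 80.0 CPM (69.9 to 91.2) in aorta 1 and 9.16 CPM (5.01 to 15.4) in aorta 2, while *Pax1* in the same cells stood at 45.7 and 53.6 CPM. In F5 *Tbx20* stood at 63.0 CPM (45.4 to 85.1) from 42 UMIs in aorta 1 and 3.39 CPM (0.0857 to 18.9) from 1 UMI in aorta 2. After thinning, 63 and 17 fibroblasts were *Meox1*-positive, and its pairs were therefore not read.

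**Figure D4:**
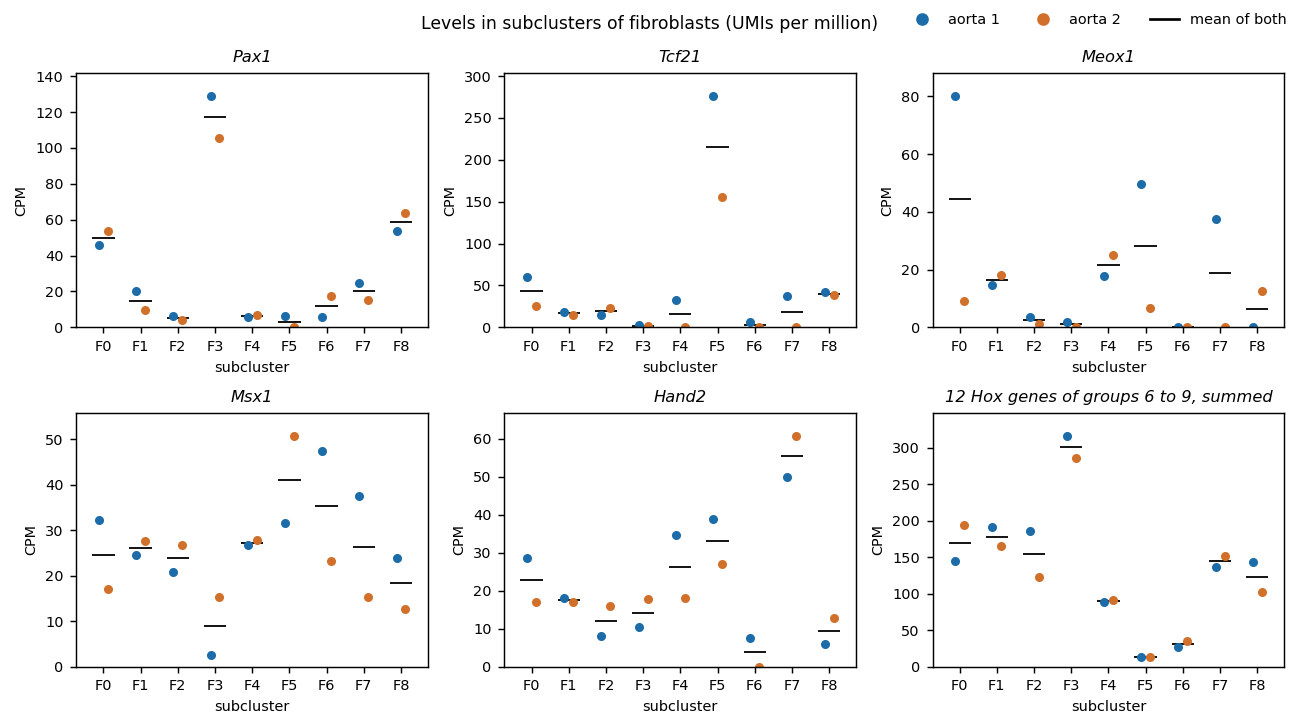
Levels of *Pax1*, *Tcf21*, *Meox1*, *Msx1* and *Hand2* and the sum of 12 Hox genes (y axis, CPM, linear) in 9 fibroblast subclusters (x axis), with 1 point per aorta and a bar at the mean. *Pax1* and the Hox sum were highest in F3, *Tcf21* in F5, and *Meox1* in F0 was 80.0 CPM in aorta 1 and 9.16 CPM in aorta 2.

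Pairs were counted in fibroblasts too. *Tcf21* with *Pax1* was found in 4 and 1 fibroblasts where the product gave 11.2 and 3.34, and *Msx1* with *Pax1* in 2 and 1 against 9.25 and 5.51. *Msx1* with *Tcf21* was found in 20 cells against 8.67 and in 6 against 2.75. *Hand2* with *Tcf21* was found in 16 cells against 7.81 in aorta 1 and in 2 against 1.67 in aorta 2. *Hand2* with *Msx1* lay on different sides, with 8 cells against 6.45 and 1 against 2.75. Over both aortas its ratio to the product was 0.978, but it was 1.75 without thinning (62 cells), 1.60 after thinning to 5000 UMIs and 1.82 with doublets kept, so the side of this pair depended on these settings. *Hand2* with *Pax1* was found in 4 cells against 8.32 and in 3 against 3.34.

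Hox transcripts went with *Pax1*. A Hox UMI was detected in 61.2% (52.3 to 69.7) and 63.8% (52.2 to 74.2) of *Pax1*-positive fibroblasts and in 26.8% (24.4 to 29.3) and 27.5% (24.6 to 30.6) of negative ones. In *Tcf21*-positive fibroblasts it was detected in 6 of 121 cells (4.96%, 1.84 to 10.5) and 6 of 40 cells (interval 5.71% to 29.8%), against 32.3% (29.8 to 35.0) and 31.2% (28.2 to 34.3) of negative ones. A Hox UMI was found with *Msx1* in 6 and 9 fibroblasts against 29.96 and 20.2, and with *Hand2* in 17 and 9 against 26.97 and 12.2. GFP transcripts were found in 18.2% (11.8 to 26.2) and 7.50% (1.57 to 20.4, from 3 of 40 cells) of *Tcf21*-positive fibroblasts. In negative ones they were found in 21.5% (19.3 to 23.9) and 20.2% (17.7 to 23.0), so the intervals overlapped in both aortas. Endothelial cells held them in 25.3% and 27.2%.

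The genes most like *Pax1* were *Fmod*, *Vegfd*, *Sfrp2*, *Slc6a6* and *Fbln7*. *Fmod*, a collagen-binding proteoglycan, stood at 1556 and 1442 CPM in *Pax1*-positive and 469 and 412 CPM in negative fibroblasts. *Vegfd*, a growth factor for lymphatic vessels, stood at 855 and 896 CPM in positive and 204 and 294 CPM in negative ones. Summed SMC markers stood at 1111 and 975 CPM in *Pax1*-positive and 2679 and 2709 CPM in negative fibroblasts, with 8 of 8 detected and 1 higher in positive cells of both aortas. Endothelial markers stood at 18.1 and 12.5 against 76.1 and 76.2 CPM, with *Cldn5* and *Kdr* at 0 and none of 8 higher in both. Myeloid markers stood at 103 and 196 against 99.0 and 103 CPM, with 9 of 10 detected and 3 higher in both. Their part in the *Pax1* list was not tested.

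Subcluster F4 was led by *Tagln*, the GFP reporter, *Myh11* and *Acta2* and held *Tbx20* at 20.8 and 16.7 CPM and *Hand2* at 34.6 and 18.1 CPM. Without the subclusters led by markers of another class, F4 among them, 5 pairs lay above and 9 below the product in both aortas.

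Endothelial cells divided by *Isl1*. It was high in E0 (173 and 163 CPM), E2 (156 and 151 CPM) and E3 (124 and 131 CPM) and low in E1 (17.7 and 8.60 CPM) and E4 (5.41 and 0 CPM). *Nkx2-3* was highest in E0 (144 and 116 CPM), lower in E3 (47.0 and 65.7 CPM) and lower again in E2 (25.01 and 26.3 CPM). *Dlx6* (33.3 and 55.9 CPM) and *Hand2* (37.5 and 32.9 CPM) were highest in E2. The Hox sum was 29.2 and 26.3 CPM in E2 and 73.1 and 87.6 CPM in E3, but 335 and 219.7 CPM in E0 and 452 and 408 CPM in E1. *Meox1* was highest in E5, led by *Cd36*, *Fabp4* and *Gpihbp1*, at 55.1 and 30.7 CPM from 7 and 3 UMIs.

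**Figure D5:**
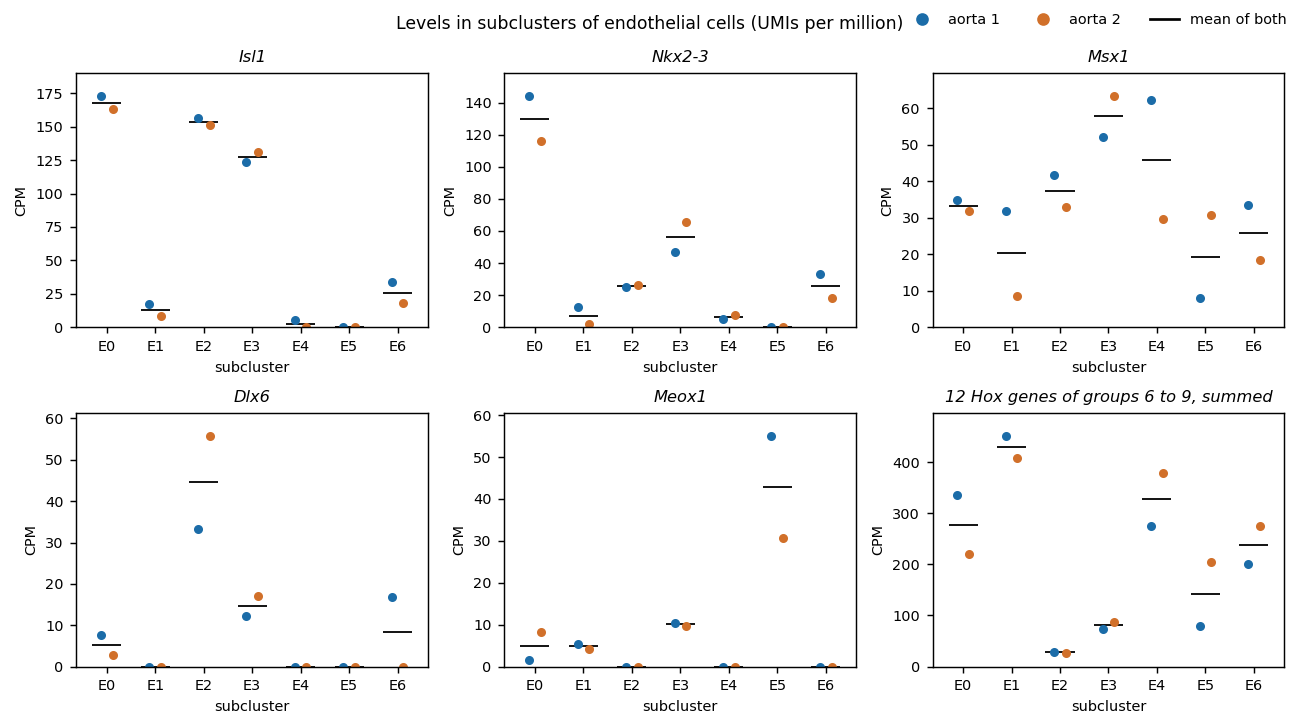
Levels of *Isl1*, *Nkx2-3*, *Msx1*, *Dlx6* and *Meox1* and the sum of 12 Hox genes (y axis, CPM, linear) in 7 endothelial subclusters with at least 10 cells in each aorta (x axis), with 1 point per aorta and a bar at the mean. *Isl1* was high in E0, E2 and E3, *Nkx2-3* in E0, *Dlx6* in E2 and *Meox1* in E5, while the Hox sum was lowest in E2.

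Endothelial cells with at least 3000 UMIs numbered 471 and 331. *Isl1* and *Nkx2-3* were found together in 24 of them against 13.2 and in 22 against 12.5. *Nkx2-3* was detected in 24 of 113 *Isl1*-positive cells (21.2%, 14.1 to 29.9) and 22 of 88 (interval 16.4% to 35.4%), and in 8.66% (5.96 to 12.1) and 10.3% (6.77 to 14.8) of negative ones. *Msx1* with *Nkx2-3* was close to the product (6 cells against 5.37 and 4 against 3.98), and *Msx1* with *Isl1* lay on different sides (8 against 11.04 and 10 against 7.44), with a ratio over both aortas of 0.974, and 1.17 without thinning. A Hox UMI was found with *Isl1* in 36 and 25 cells against 42.5 and 33.2, with *Nkx2-3* in 30 and 17 against 20.7 and 17.7, and with *Msx1* in 14 and 6 against 17.3 and 10.6. The genes most like *Isl1* were *Ncam1*, *Tmtc2*, *Ptch1*, *Dop1b* and *Efemp1*, with log2 ratios of 0.70 to 1.02. *Ptch1*, the hedgehog receptor, stood at 112 and 136 CPM in *Isl1*-positive and 67.0 and 71.3 CPM in negative cells. Summed SMC markers stood at 1006 and 886 CPM in *Isl1*-positive and 1430 and 1258 CPM in negative cells and myeloid markers at 56.0 and 64.4 against 136 and 123 CPM, and their part in this list was not tested.

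Other regional and lineage transcription factors were tested between cell types, 76 in all, of which 50 had enough counts. The list was chosen with earlier results of these data known, and some of its groups are known factors of a cell type. Its calls are therefore no independent test of the list. Sums per aorta were compared with edgeR's quasi-likelihood test. A gene was called at a Benjamini-Hochberg adjusted p under 0.05 over every gene tested and a log2 fold change over 1 in size. The 26 untested genes held 0 to 94 UMIs in all, with 0 for *Pax7* and *En1*.

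Between SMCs and fibroblasts 14 of the 50 were higher in SMCs and 17 were lower, where 10.4% and 12.6% of 12657 genes were. These 12657, called all genes in the shares, counts and medians below, leave out markers and the variable genes used for clustering. The list had no such genes removed, so its share and theirs are not like for like. With either aorta left out, both counts of the list were lower. There 1 sum per type remained, and the share of all genes called is not given here. Fibroblasts included F4 here, and its part in these counts was not tested. *Dlx2*, a distal-less gene like *Dlx6*, stood at 4.28 and 5.18 CPM in SMCs and 0.0979 and 0.144 CPM in fibroblasts (log2 fold change 5.14 ± 0.61 SE, edgeR adjusted p = 5.58e-07). With 2 fibroblast UMIs, its ratio of summed counts was 39.9 with an exact counting interval of 10.8 to 333. *Dlx1*, its neighbour, stood at 3.98 and 4.57 against 0.196 and 0.864 CPM (3.23 ± 0.51, edgeR adjusted p = 1.68e-05). *Scx*, the tendon factor scleraxis, stood at 76.7 and 89.9 against 5.97 and 7.78 CPM (3.76 ± 0.16, edgeR adjusted p = 9.24e-16). DESeq2 called 5 higher and 13 lower and did not call *Dlx1* (adjusted p = 0.719) or *Dlx2* (adjusted p = 0.493). It also called fewer of all genes higher, as given under the dependence on processing. Over the edgeR alternatives in which they were tested, the highest adjusted p was 4.62e-05 for *Dlx1* and 0.000607 for *Dlx2*.

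Lower in SMCs were *Foxd1*, at 0.603 and 0.345 against 69.1 and 54.6 CPM in fibroblasts (log2 fold change -6.75 ± 0.27, edgeR adjusted p = 4.91e-16), and *Meox2*, the relative of *Meox1*, at 1.02 and 0.518 against 88.1 and 92.2 CPM (-6.60 ± 0.20, edgeR adjusted p = 3.67e-18). *Msc*, a bHLH gene of muscle progenitors, had no UMI in SMCs and 58 and 44 UMIs in fibroblasts. It was at least 55.8-fold higher in fibroblasts against a floor of 3 counts over both aortas, and DESeq2 did not call it (adjusted p = 0.205, against at most 2.34e-05 over the edgeR alternatives). The median log2 fold change was -0.07 over the list and 0.01 over all genes. With DESeq2's size factors in edgeR the medians between SMCs and fibroblasts were -0.35 over the list and -0.26 over all genes. They were -0.61 and -0.10 between endothelial cells and fibroblasts. For SMCs the list then gave 9 higher and 19 lower, and all genes gave 980 higher and 2184 lower in place of 1313 and 1596. None of the 98 calls over the 3 comparisons changed direction under that scaling, and 5 were not called.

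The calls are given by group of the list, and genes of small groups were chosen after their values were seen. Of 12 heart field and outflow tract genes, *Mef2c* (log2 fold change 1.71), *Tbx18* (1.27), *Foxc1* and *Heyl* (1.02) were higher in SMCs and *Tbx5* (-2.85) was lower. Of 15 neural crest and pharyngeal arch genes, 4 were higher and 7 lower. All 3 tested Dlx genes, *Dlx1*, *Dlx2* and *Dlx5*, were among the higher ones, together with *Barx1* (2.28), and *Dlx5*, the genomic neighbour of *Dlx6*, stood at 25.6 and 32.4 CPM in SMCs and 8.03 and 8.50 CPM in fibroblasts (1.95 ± 0.18, edgeR adjusted p = 3.36e-09). The lower ones included *Twist1* (-1.16) and *Twist2* (-3.55), which act in mesenchyme. Of 10 somite, sclerotome and lateral plate genes, *Scx*, *Foxl1* (1.99), *Tcf15* (1.98), *Foxf1* (1.84) and *Pax9* (1.17), the relative of *Pax1*, were higher, and 4 were lower. The epicardium and mesothelium list gave 0 higher and 2 lower of 4, *Wt1* and *Nr2f2*, and the endothelium list 1 and 3 of 9, with *Erg* (2.36) higher.

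Between endothelial cells and fibroblasts 18 of the 50 were higher and 19 lower, where 9.55% and 13.5% of all genes were, with a median of -0.51 over the list and 0 over all genes. All 9 of the endothelium list were higher. *Gata2*, a hematopoietic and endothelial zinc finger factor, stood at 157 and 169 against 0.685 and 0.576 CPM (log2 fold change 7.86 ± 0.31, edgeR adjusted p = 1.15e-16). *Sox17*, at 158 and 196 against 0.489 and 1.01 CPM, and *Hhex*, at 102 and 77.6 against 0.489 and 0.288 CPM, followed (7.85 ± 0.25 and 7.63 ± 0.31).

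Lower in endothelial cells were *Foxd1*, with 0 and 1 UMIs against 706 and 379 (-8.19 ± 0.48), and *Snai1*, a factor of epithelial to mesenchymal transition, with 1 and 0 UMIs against 191 and 138 (-6.50 ± 0.62). With 1 endothelial UMI each, the ratio of summed counts was 334 (59.7 to 13188) for *Foxd1* and 101 (18.03 to 4007) for *Snai1*. *Osr2* had 0 UMIs against 47 and 39 and was at least 8.81-fold higher in fibroblasts, and DESeq2 did not call it (adjusted p = 0.430, against at most 0.00549 over the edgeR alternatives). Of the heart field list, *Tbx1*, a T-box gene of the second heart field and the pharyngeal arches, stood at 48.0 and 53.2 CPM in endothelial cells, against 5.09 and 5.33 CPM in fibroblasts (3.21 ± 0.22, edgeR adjusted p = 2.52e-11). *Foxc1*, *Gata6* and *Foxc2* were also higher, and *Heyl*, *Tbx2* and *Tbx5* lower. The neural crest list gave *Six2* and *Dlx5* higher and 9 lower, the somite list *Tcf15*, *Pax9* and *Scx* higher and 5 lower, and the epicardium list *Nr2f1* and *Nr2f2* lower. These genes too were chosen after their values were seen.

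Between mesothelial cells and fibroblasts 8 of the 50 were higher and 22 lower, where 9.71% and 11.7% of all genes were, with a median of -1.32 over the list and -0.02 over all genes. DESeq2 called 5 higher and 19 lower, and the share of all genes it called is not given here. *Wt1*, the Wilms tumor factor of mesothelium, stood at 297 and 261 against 0.979 and 0.576 CPM (log2 fold change 8.29 ± 0.25, edgeR adjusted p = 1.92e-17). *Bnc1*, at 108 and 117 against 0.0979 and 0.144 CPM, and *Gata5*, at 51.1 and 49.6 against 0.0979 and 0 CPM, were higher too (9.48 ± 0.37 and 9.06 ± 0.58). With 2 and 1 fibroblast UMIs, their ratios of summed counts were 955 (262 to 7920) and 868 (153 to 34503), so that these genes cannot be ranked against *Wt1*. *Erg* and *Msc* had no mesothelial UMI and were at least 9.41-fold and 5.64-fold higher in fibroblasts. Of the heart field list, *Gata5*, *Gata4* (4.13), *Tbx18* (2.74) and *Tbx5* (2.56) were higher and *Foxc1*, *Foxc2*, *Heyl* and *Tbx1* lower. The neural crest list gave *Barx1* (3.76) higher and 10 lower, the somite list *Zic1* (4.25) higher and 4 lower, the epicardium list 2 and 2, and the endothelium list *Erg* and *Fli1* lower. Those not named by the size of their change were again chosen after their values were seen.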

How the data were processed

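Libraries of 2 mouse thoracic aortas were analysed. The authors deposited raw UMI counts per gene and barcode, made with Cell Ranger 4.0.0 against mm10 per the file headers and the labels; the submitters' notes also name Seurat 4.0. Whether counting used the strand is not given in the sources used here.

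Cells with at least 200 genes, 1000 to 25000 UMIs and at most 10% mitochondrial UMIs were kept, and Scrublet calls (201 and 89) were removed. Cells were clustered with scanpy 1.11.5 on 2000 variable genes, 30 components, 15 neighbours and Leiden resolution 1 (subclusters 0.6), without the members, the other listed transcription factors and Hox genes. Clusters were named from markers, and 13 cells stayed unnamed. Sums per aorta and type were tested with edgeR 4.0.16 (TMM, filterByExpr, 1 fit over all types) and, as an alternative, DESeq2 1.42.0. Markers and genes used for clustering were left out of the counts over all genes. The edgeR step was tested on simulated counts. The members and lists were chosen with earlier results of these data known.

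Text names all 10 members, pairs with at least 20 positive cells of each gene in each aorta, the 3 other listed factors with the largest called change in each direction and at least 20 UMIs in each aorta, and the 5 genes most like a member with at least 30 UMIs in positive cells of each aorta. Other listed factors named by group were chosen after their values were seen. Some genes that the rule picks are not reported here.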

Additional observations from a re-analysis of the deposited data

How the results depend on the processing

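The highest cell type stayed the same for all 10 genes under each alternative for levels, except *Tbx20* with doublets kept, with means over cells and without aorta 1 (9 of 10). The highest subcluster stayed the same for 7 genes without aorta 1 (not for *Tbx20*, *Msx1* and *Meox1*), an alternative added after the data were seen, as was the one without subclusters led by markers of another class.

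The 5 pairs above the product became 3 with mixed cells left out, where the rule removed 1590 of 1742 and 1157 of 1272 SMCs. It also removed 1128 of 1395 and 717 of 959 fibroblasts and 467 of 471 and 322 of 331 endothelial cells. *Isl1* with *Nkx2-3* was then found in 0 endothelial cells. *Hand2* with *Msx2* was found in 1 SMC, at a ratio of 1.27 to the product. With so few cells left, this setting cannot decide on these pairs. Without a replicate they ranged from 6 to 7.

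Between SMCs and fibroblasts, listed genes called higher numbered 5 with DESeq2, 9 with DESeq2 size factors in edgeR and 9 at 5000 to 25000 UMIs. Those called lower numbered 11 at 5000 to 25000 UMIs. In either direction there were 18 with DESeq2 and 20 at 5000 to 25000 UMIs, against 31. Of all genes 810 were higher with DESeq2, in place of 1313, and the share at 5000 to 25000 UMIs is not given here. Between mesothelial cells and fibroblasts 5 were higher with DESeq2. The causes were not tested. Both counts between SMCs and fibroblasts were also lower without a replicate. There 1 sum per type remained, and the spread came from the fit over all types.

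With the replicate block, since both types came from the same aorta, the counts were 14 and 17 in SMCs, 18 and 20 in endothelial cells and 8 and 22 in mesothelial cells, so no count moved by more than 1.5 times. Low UMI counts limit *Tbx20*, *Meox1* and most pairs.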
